A study of Mus musculus with 4 samples.

Results

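The tumor suppressor p53 is held in check by products of its own target genes. Measurements of 5 genes that encode such negative feedback regulators (Mdm2, Rchy1, Mdm4, Ppm1d and Ccng1) were taken from a microarray study of mouse embryonic fibroblasts (MEFs). They were chosen by name, as the spots that are not controls and carry one of these gene names, with earlier results of these data known. They are 5 of 31709 genes named on the array and are measured by 6 probes, 2 of them for Mdm4. The study compared p53+/+ (wild-type, WT) MEFs with p53-/- MEFs, each without and with doxorubicin, a topoisomerase inhibitor that breaks DNA, to look for p53 target genes whose products modulate myosin. Each of the 4 conditions had 1 array, and the arrays shared 1 slide. No replicate thus stands behind any difference, no p-value is given, and the culture and the place on the slide cannot be told apart from the condition. The dose and time of doxorubicin for the arrays, the passage of the MEFs and the number of embryos behind them are not given in the sources used here.

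When DNA is damaged, kinases such as ATM and CHK2 phosphorylate p53 and release it from its inhibitors, and p53 then turns on genes for arrest, repair and death. Among the genes it turns on are those that end its activity. MDM2 is a ubiquitin ligase that marks p53 for the proteasome, RCHY1 (PIRH2) is another such ligase, and MDM4 (MDMX) is a relative of MDM2 that covers the transactivation domain of p53. The phosphatase WIP1, encoded by Ppm1d, removes phosphates from p53 and from the kinases that act on it, and cyclin G1, encoded by Ccng1, brings the phosphatase PP2A to MDM2. In fibroblasts this circuit is known to limit how strong and how long a p53 response is.

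The level of a probe is given here as its background-subtracted intensity divided by the 75th percentile of its array, or as the log2 of that quotient. The error of a log2 value is the one that the scanner software assigns to the spot, carried over to ratios. It covers a single array and no biological variation. It came to 0.14 to 0.30 for the levels and 0.20 to 0.36 for the ratios of the regulators, while probes spotted 10 times on these arrays (253 such probes) had a spot-to-spot SD of 0.08. All 6 probes were well above background and none was saturated on the 4 arrays. The 75th percentiles were signals of 1819 to 2421, the brightest negative control spots had signals of 77.5 to 250.1, and 16513 genes were measured, that is, well above background, on all arrays. Trp53 itself, the targeted gene, had signals of 1228 and 3442 in untreated and doxorubicin-treated WT MEFs and of 442 and 543 in p53-/- MEFs. Whether its probe lies in the deleted part was not analysed here.

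Each level stands for 1 short stretch of a transcript, so the first 30 of the 60 bases of the 6 probes are shown, 5′ to 3′, with the letters AATAAA of the polyadenylation signal in capitals. The probes are on chromosome 10 (Mdm2, 117126010 to 117126069, minus strand), chromosome 5 (Rchy1, 92378571 to 92378630, minus strand), chromosome 1 (the brighter Mdm4 probe at 134886426 to 134886485 and the dimmer one at 134888407 to 134888466, minus strand) and chromosome 11 (Ppm1d, 85160442 to 85160501, plus strand, and Ccng1, 40562427 to 40562486, minus strand) of mm9. Their place in an exon or intron was not analysed here.
Mdm2: ggcagcttcagtcccgatttacAATAAAgt
Rchy1: gaggattcaagatctctggatggaaatgta
Mdm4, brighter probe: gacccattaagctctgtttacagccttgaa
Mdm4, dimmer probe: acagatattttttctgagcagaaagctgaa
Ppm1d: gtgaagtttttcttgctatttcaataacaa
Ccng1: agaAATAAAattgctgagtttatctgcaaa
Over all 60 bases, the signal letters were found on the strand of the probe in 2 of the 6 probes (Mdm2 and Ccng1) and in 12.6% of the 39429 probes of the array.

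Mdm2 was the regulator with the largest doxorubicin ratio in WT MEFs. Its level was 25.2 times the 75th percentile in untreated WT MEFs, 101 times in doxorubicin-treated WT MEFs, 7.26 times in untreated p53-/- MEFs and 10.03 times in doxorubicin-treated p53-/- MEFs. The treated WT array was the highest and both p53-/- arrays lay below the untreated WT array. The level was 3.99-fold higher with doxorubicin in WT MEFs (log2 ratio 2.0 ± 0.20) and 1.38-fold higher in p53-/- MEFs (log2 ratio 0.47 ± 0.20). Only 543 of the 17513 genes measured in both states of WT MEFs exceeded this ratio. The ratio of WT MEFs exceeded that of p53-/- MEFs by 1.53 ± 0.29 on the log2 scale. Without doxorubicin the p53-/- level of Mdm2 was 28.8% of the WT level, and with doxorubicin it was 9.96%. Neighbors in the order of the 4 levels were each separated by more than 2 errors, but with arrays centered on their median the p53-/- ratio was 0.17, within 1 error of 0.

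Rchy1, the other ubiquitin ligase among them, gave a smaller ratio of the same direction. Its level was 2.62 times the 75th percentile in untreated WT MEFs, 5.10 times in treated WT MEFs, 2.0 times in untreated p53-/- MEFs and 2.59 times in treated p53-/- MEFs. The treated WT array stood above the other 3, and the untreated WT and treated p53-/- arrays differed by only 0.01 ± 0.20 on the log2 scale. The level was 1.95-fold higher with doxorubicin in WT MEFs (log2 ratio 0.96 ± 0.20), just under the 2-fold limit used for counts here, and 1.30-fold higher in p53-/- MEFs (0.37 ± 0.20, which is within 2 errors of 0). The difference of the ratios was 0.59 ± 0.29, and 3006 of 16513 genes had a larger one. The p53-/- level was 76.5% of the WT level without and 50.8% with doxorubicin.

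Mdm4, which encodes the partner of MDM2, had nearly the same level on both WT arrays and was lower with doxorubicin in p53-/- MEFs. Its brighter probe had levels of 0.349 and 0.351 times the 75th percentile in untreated and treated WT MEFs, 0.312 times in untreated p53-/- MEFs and 0.155 times in treated p53-/- MEFs. The first 3 levels were within 2 errors of their neighbors and the treated p53-/- level was the lowest. The log2 ratio was 0.01 ± 0.21 in WT MEFs and -1.01 ± 0.22 in p53-/- MEFs, where the treated level was 49.6% of the untreated one. The dimmer probe had signals of 280, 184, 187 and 138 in the same order of arrays. These are weak signals: 187 lay below the brightest negative control of its array (250.1) and 138 was close to that of its array (120). The dimmer probe gave log2 ratios of -0.41 ± 0.25 in WT MEFs and -0.80 ± 0.36 in p53-/- MEFs. Both probes were lowest in treated p53-/- MEFs, and the difference of the ratios was 1.02 ± 0.30 by the brighter probe and 0.38 ± 0.44 by the dimmer one.

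Ppm1d, which encodes the phosphatase WIP1, was higher with doxorubicin in both genotypes. Its level was 0.459 times the 75th percentile in untreated WT MEFs and 1.03 times in treated WT MEFs, against 0.357 and 0.627 times in p53-/- MEFs. Here the 2 treated arrays were the highest, and the untreated WT and p53-/- arrays differed by less than 2 errors (0.36 ± 0.21). The level was 2.26-fold higher with doxorubicin in WT MEFs (log2 ratio 1.17 ± 0.21) and 1.75-fold higher in p53-/- MEFs (0.81 ± 0.21). The difference of the ratios, 0.36 ± 0.29, was the smallest of the 5 and within 2 errors of 0. The p53-/- level was 77.9% of the WT level without doxorubicin and 60.6% with it.

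Ccng1 showed the largest gap between the genotypes among the 5. Its level was 11.5 and 25.3 times the 75th percentile in untreated and treated WT MEFs and 0.929 and 0.848 times in untreated and treated p53-/- MEFs. The WT and p53-/- arrays thus lay far apart, while the 2 p53-/- arrays differed by less than 1 error. The level was 2.20-fold higher with doxorubicin in WT MEFs (log2 ratio 1.13 ± 0.20), and the log2 ratio in p53-/- MEFs was -0.13 ± 0.21. The p53-/- level was 8.08% of the WT level without doxorubicin, a log2 ratio of -3.63 ± 0.20, and only 5 of 17286 genes had a lower ratio. With doxorubicin it was 3.36% of the WT level (log2 ratio -4.90 ± 0.20), and 26 of 17892 genes were lower. The difference of the responses was 1.27 ± 0.29.

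**Figure D1:**
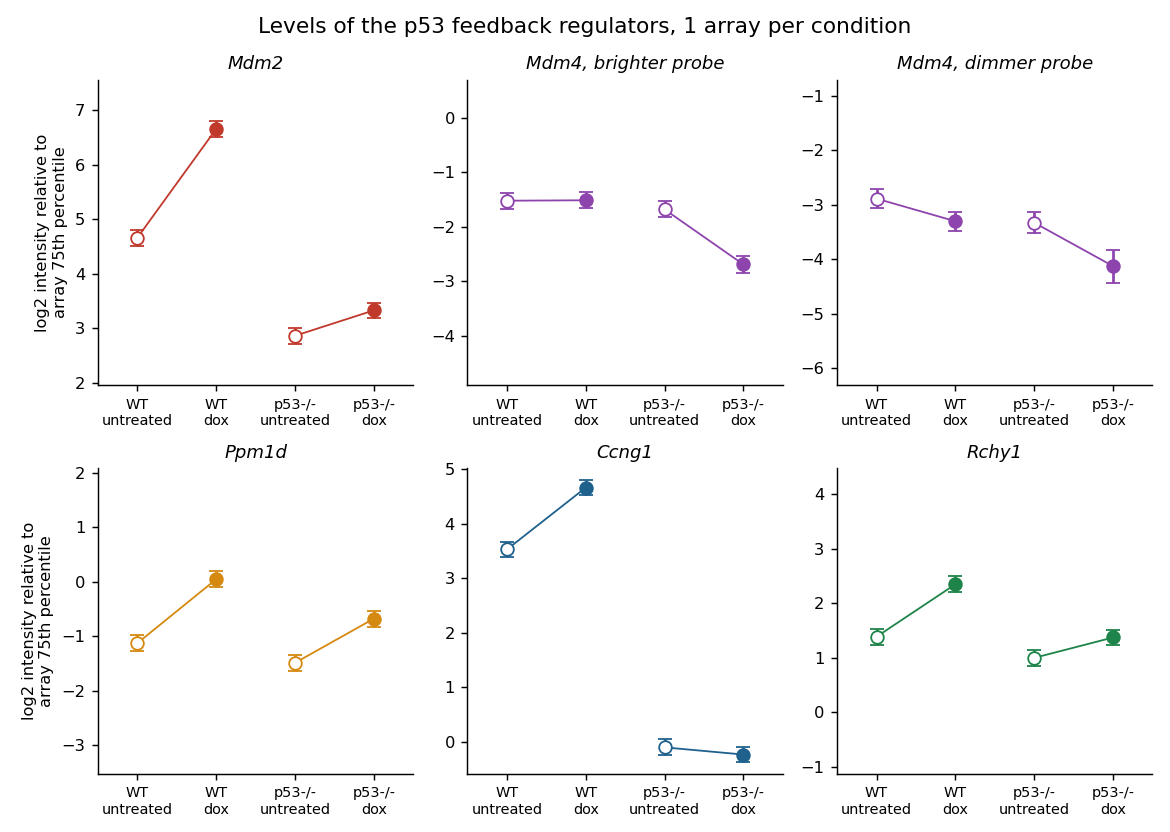
Log2 level of each probe, with the 75th percentile of the array at 0 (vertical axis, the same span in each panel) in the 4 conditions, with open points for untreated and filled points for doxorubicin-treated (dox) MEFs and bars for the error of the scanner software (1 array per point). Mdm2 and Ccng1 stand lower on both p53-/- arrays than on either WT array, Ppm1d is higher with doxorubicin in both genotypes, and both Mdm4 probes are lowest in treated p53-/- MEFs.

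As a group, the 5 regulators were counted against all genes with a limit of 2-fold. With doxorubicin, 3 of 5 (Mdm2, Ppm1d and Ccng1) were at least 2-fold higher in WT MEFs, where 11.0% of the 17513 measured genes were, and 0 were at least 2-fold lower, against 10.4% of genes. With arrays centered on their median, only Mdm2 of these stayed past 2-fold in WT MEFs, as it did with a limit of 3-fold. In p53-/- MEFs 0 of 5 were at least 2-fold higher, against 9.24% of the 16953 measured genes, and 1 (Mdm4) was at least 2-fold lower, against 6.89%, a call that was lost with the mean of both Mdm4 probes and with normexp background correction. The median log2 ratio of the 5 was 1.13 in WT MEFs and 0.37 in p53-/- MEFs, and the medians of all genes were 0.01 and 0.001. The WT ratio was the larger of both in 5 of 5 genes, against 50.9% of all genes, and for Ppm1d (0.36 ± 0.29) the difference was within 2 errors of 0. The difference was at least 2-fold for 3 of 5 (Mdm2, Mdm4 and Ccng1), against 8.37% of the 16513 genes measured on all arrays. Mdm4 passed by its brighter probe only, and its difference was 0.70 with the mean of its probes and 0.87 with normexp, so that 2 regulators were left under either. The median difference was 1.02, against 0.01 for all genes. This median is the value of Mdm4 by its brighter probe, so it depends on the choice of probe in the same way.

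All 5 were also lower in p53-/- than in WT MEFs in both states. Without doxorubicin 2 of 5 (Mdm2 and Ccng1) were at least 2-fold lower, against 2.61% of the 17286 measured genes, and the other 3 had log2 ratios of -0.16 ± 0.21 (Mdm4, brighter probe), -0.36 ± 0.21 (Ppm1d) and -0.39 ± 0.20 (Rchy1), each within 2 errors of 0. With doxorubicin 3 of 5 (Mdm2, Ccng1 and Mdm4) were at least 2-fold lower, against 10.3% of 17892 genes, and Rchy1 (-0.98 ± 0.20) and Ppm1d (-0.72 ± 0.21) had ratios beyond 2 errors. Mdm4 passed by its brighter probe (-1.18 ± 0.22). Its dimmer probe gave -0.82 ± 0.35, and the mean of its probes was -1.001, at the limit. The comparisons of the genotypes share their arrays with the comparisons of treated and untreated MEFs and are not separate evidence.

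**Figure D2:**
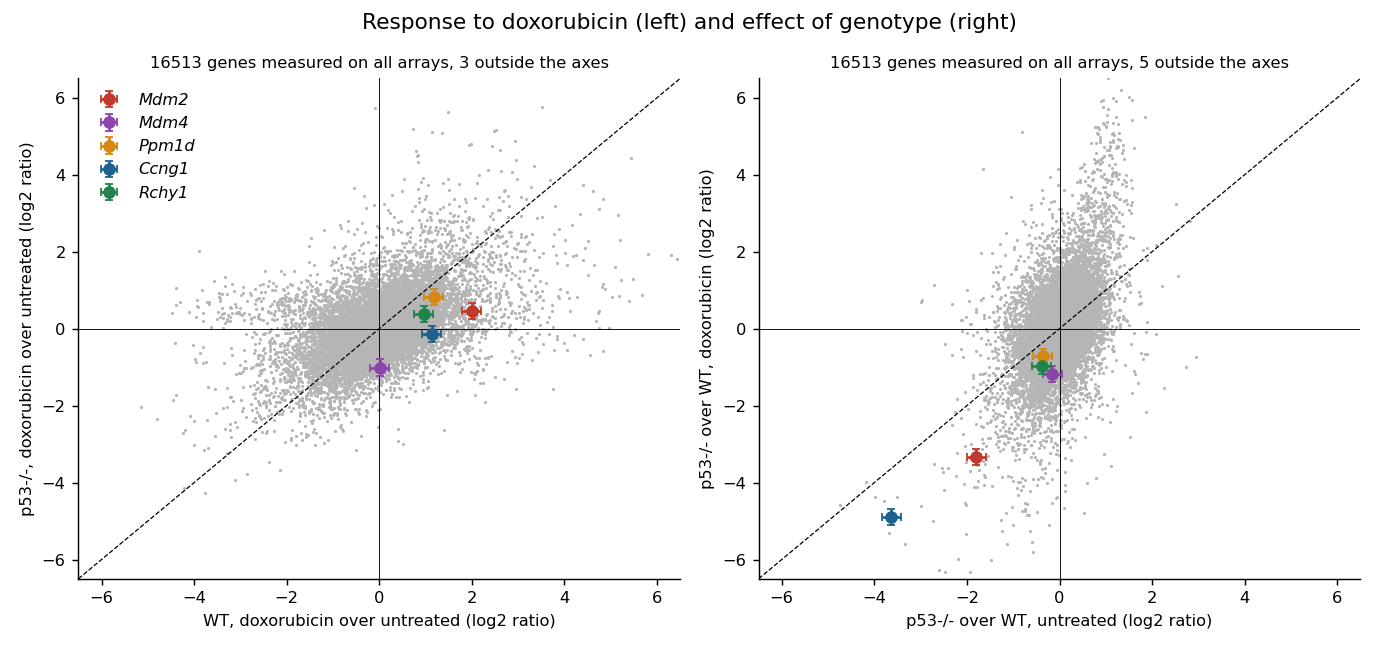
Left, doxorubicin response (log2 ratio of treated over untreated) of p53-/- MEFs against that of WT MEFs. Right, log2 ratio of p53-/- over WT MEFs with doxorubicin against that without it. Gray points are the 16513 genes measured on all arrays, colored points the regulators with the error of the scanner software, and the dashed line marks equal ratios. All 5 regulators lie below the line on the left, and Mdm2 and Ccng1 lie at the lower left of the plot on the right, at 9.96% and 3.36% of the WT level with doxorubicin.

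The promoters of these genes bear on a feedback loop because p53 binds DNA at paired copies of a 10-base motif, the p53 decamer consensus. RefSeq windows of 250 bases before the annotated start (GRCm38.p6) were searched for it. The consensus reads the same on both strands, so 1 search covers both. A perfect decamer stood in a window of 4 of 5 regulators (Mdm2, Rchy1, Ppm1d and Ccng1), and 8.20% of the 27025 genes in that table have one. Neither of the 2 windows of Mdm4 holds these letters. For Rchy1 the decamer is in 1 of 2 windows. By its coordinates this window lies downstream of the start that follows the other window (chr5:91963069-91963318). That other window holds no decamer. The windows that hold a decamer are shown 5′ to 3′ in the direction of the gene, with the matches in capitals, and in each case the start follows the last base.
Mdm2 (chr10:117710759-117711008, minus strand): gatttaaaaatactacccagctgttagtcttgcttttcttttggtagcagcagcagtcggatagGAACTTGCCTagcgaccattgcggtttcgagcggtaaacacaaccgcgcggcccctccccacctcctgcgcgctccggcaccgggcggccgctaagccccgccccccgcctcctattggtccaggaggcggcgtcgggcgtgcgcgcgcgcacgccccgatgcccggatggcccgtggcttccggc
Rchy1 (chr5:91962557-91962806, minus strand, 1 of 2 windows): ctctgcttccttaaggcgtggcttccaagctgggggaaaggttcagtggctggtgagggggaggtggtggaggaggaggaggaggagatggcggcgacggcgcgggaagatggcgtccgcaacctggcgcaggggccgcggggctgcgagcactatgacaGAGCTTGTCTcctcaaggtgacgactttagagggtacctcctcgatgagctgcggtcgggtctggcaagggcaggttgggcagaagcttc
Ppm1d (chr11:85311004-85311253, plus strand): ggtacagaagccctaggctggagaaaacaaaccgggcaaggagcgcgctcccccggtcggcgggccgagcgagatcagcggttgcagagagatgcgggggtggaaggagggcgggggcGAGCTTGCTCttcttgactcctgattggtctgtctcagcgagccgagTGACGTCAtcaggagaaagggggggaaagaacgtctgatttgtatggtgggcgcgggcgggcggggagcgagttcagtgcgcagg
Ccng1 (chr11:40755287-40755536, minus strand): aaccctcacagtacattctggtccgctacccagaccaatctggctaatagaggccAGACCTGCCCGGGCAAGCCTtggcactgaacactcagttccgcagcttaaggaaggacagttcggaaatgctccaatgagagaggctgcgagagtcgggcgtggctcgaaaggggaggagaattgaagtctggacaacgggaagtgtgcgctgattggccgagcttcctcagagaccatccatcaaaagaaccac
In Mdm2 the decamer lies 177 to 186 bases before the start, in Rchy1 81 to 90 bases, in Ppm1d 123 to 132 bases and in Ccng1 176 to 185 bases. In Ccng1 it directly follows a second decamer with 1 mismatch, and the capitals mark both. Such an adjacent pair with at most 1 mismatch was found in 25 of the 27025 genes (0.0925%), and among the 5 regulators only in Ccng1. The Ppm1d window also holds TGACGTCA, the cAMP response element (a palindrome, so the same on both strands), 78 to 85 bases before the start, as do windows of 1.77% of genes. The second capital stretch of Ppm1d is this element. A match of letters is a description of the window and does not show binding, and sites in introns, where p53 sites of such genes can also lie, were not searched.

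The same measures over the rest of the circuit give the setting of these 5 genes. The shares of all genes past 2-fold were 11.0% higher and 10.4% lower in WT MEFs. In p53-/- MEFs they were 9.24% higher and 6.89% lower. In the short lists below, a count of 0 or 1 gene differs little from these shares. Of the p53 family, Trp53 was the only 1 of 3 at least 2-fold higher in WT MEFs (1.68), Trp63 had log2 ratios of 0.67 (WT) and -0.32 (p53-/-), and Trp73 had 0.45 and 0.29 at signals of 184 to 391. The WT minus p53-/- difference was 1.74 for Trp53, the targeted gene, 0.99 for Trp63 and 0.16 ± 0.35 for Trp73, which is within 1 error of 0. The median of the 3 is thus the value of Trp63. The Trp73 signal in untreated p53-/- MEFs (249) lay below the brightest negative control of that array (250.1). Among the other ubiquitin ligases and cofactors of p53 (15 measured of 16 listed), 0 were at least 2-fold higher or lower with doxorubicin in WT MEFs, and 2 were higher and 2 lower in p53-/- MEFs. Siah1b, a ligase, had signals of 2402, 1156, 3421 and 9001 in untreated WT, treated WT, untreated p53-/- and treated p53-/- MEFs, so that its log2 ratio was -0.87 ± 0.20 in WT and 1.03 ± 0.20 in p53-/- MEFs. Daxx, a partner of MDM2, had ratios of 0.47 and 1.33. Huwe1, a large ligase that acts on p53, had ratios of -0.93 and -1.48. Ube4b, which extends ubiquitin chains on p53, had -0.38 and -1.28 by its brighter probe, but 0.40 and 0.32 by another probe. Wwp1 (0.46 in WT and -0.79 in p53-/- MEFs) had the largest difference of the list, 1.25, and Siah1b the smallest, -1.90. The median difference of the 15 was 0.0005. With doxorubicin Wwp1 was also the only gene of this list at least 2-fold lower in p53-/- than in WT MEFs (-1.68). Among the regulators Mdm2, Ccng1 and, by its brighter probe, Mdm4 were. In the same comparison 3 genes of the list were at least 2-fold higher (Siah1b 2.55, Topors 1.57 and Daxx 1.29). The Wwp1 signals were weak, at 337, 406, 227 and 168 in the order given for Siah1b. Of these, 227 lay below the brightest negative control of its array (250.1), and 168 was not far above that of its array (120).

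Genes that act on the regulators themselves lay on both sides of 0. Of 8 deubiquitinases of p53 or MDM2, 1 (Usp2, which stabilizes MDM2) was at least 2-fold higher in WT MEFs, at 1.03 (WT) and 1.27 (p53-/-) on the log2 scale, and 1 (Usp28) was at least 2-fold lower (-1.12 in WT and 0.46 in p53-/- MEFs). Usp7, the deubiquitinase best known for MDM2, had -0.13 and -0.11, and Otub1 had the largest difference of this list, 0.79. Of 7 genes listed as inhibitors or binding partners of MDM2, only Mtbp passed 2-fold with doxorubicin. Mtbp, which encodes an MDM2-binding protein, had signals of 7414 and 1180 in untreated and treated WT MEFs and 9552 and 7925 in p53-/- MEFs. Its log2 ratio was -2.46 (WT) and -0.63 (p53-/-). Cdkn2a, the locus of the MDM2 inhibitor ARF, had ratios of 0.02 and 0.01 by its brighter probe, and 0.01 and 0.48 by another probe. Rpl23, a ribosomal protein that binds MDM2, had the largest difference of this list, 0.28. The median difference was -0.17 for the deubiquitinases and 0.02 for the inhibitors or binding partners of MDM2.

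The substrates and partners of the phosphatase arm were measured in the same way. Of 12 kinases of p53 or MDM2 and substrates of WIP1, 11 were measured (Chek1 was not well above background), 0 were at least 2-fold higher and 2 were at least 2-fold lower in WT MEFs. These were H2ax, the histone whose phosphorylation marks DNA breaks and a substrate of WIP1 (log2 ratio -1.14 in WT and -0.32 in p53-/- MEFs), and Prkdc, the catalytic subunit of DNA-PK (-1.05 and -0.83). Hipk2 had ratios of -0.43 and -1.72 by its brighter probe, but its other probe gave 0.83 and 0.80. Of 10 PP2A subunits and relatives of cyclin G1, Ppp2r5d, a regulatory B56 subunit, was 2-fold or more higher in WT MEFs, at 1.78 (WT) and 0.59 (p53-/-) on the log2 scale. Its second probe gave 1.61 and 0.66. Ccng2, the closest relative of Ccng1, was the only one of the list at least 2-fold higher in p53-/- MEFs, with signals of 309, 429, 256 and 983 and log2 ratios of 0.67 and 1.57. Ccng1 and Ccng2 thus differed in the sign of their difference, which was 1.27 for Ccng1 and -0.91 for Ccng2.

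The other p53 targets listed were 20 genes of arrest, death and repair. In WT MEFs 11 of 20 were at least 2-fold higher and 0 lower with doxorubicin, against 11.0% and 10.4% of all genes. The median log2 ratio was 1.13. In p53-/- MEFs 6 of 18 measured were higher and 2 lower, against 9.24% and 6.89% of all genes, with a median of 0.39. Eda2r and Tap1 were not well above background there without doxorubicin. The median difference was 0.60, ranging from -1.24 (Gadd45a, a stress gene of growth arrest) to 2.43 (Ei24, a membrane protein of the endoplasmic reticulum). Without doxorubicin 13 of 18 were at least 2-fold lower in p53-/- than in WT MEFs, against 2.61% of all genes. With doxorubicin 16 of 19 were, against 10.3%. Bax, an effector of apoptosis, stood at 1.10 (WT) and -0.33 ± 0.20 (p53-/-). Ccng1 was close to it in WT MEFs (1.13), but the p53-/- ratio of Ccng1 (-0.13 ± 0.21) was within 1 error of 0. Cdkn1a, the kinase inhibitor p21, had 2.08 and 2.23, and Perp, a membrane protein of cell death, had 4.4 and 3.73. Thus Cdkn1a and Perp were far higher with doxorubicin in p53-/- MEFs as well, whereas the ratio of Mdm2 there was 0.47 and that of Ccng1 was -0.13. The treated p53-/- levels of Cdkn1a and Perp still lay far below the treated WT levels, at log2 ratios of -4.58 and -4.47.

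**Figure D3:**
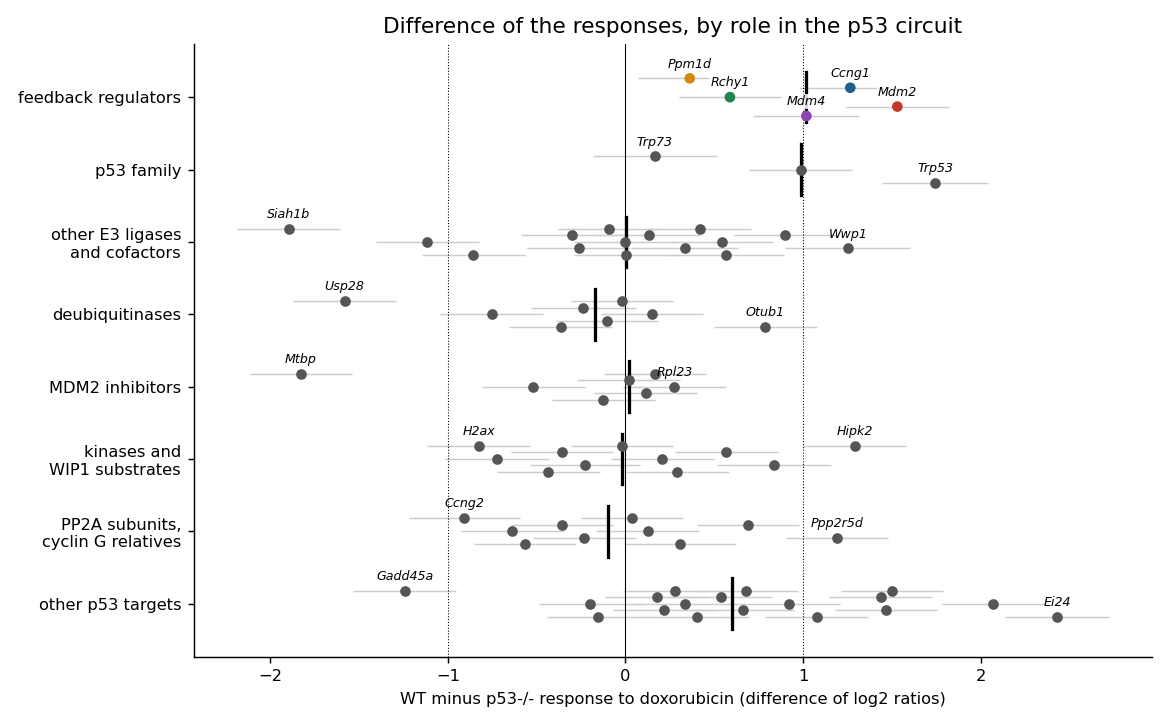
WT minus p53-/- response to doxorubicin, as a difference of log2 ratios (horizontal axis), for the genes of each list measured on all arrays. Points are genes, gray bars the error of the scanner software, black bars the median of the list, and dotted lines mark 2-fold. All 5 regulators lie above 0 with a median of 1.02, which is the value of Mdm4 by its brighter probe. The p53 family (3 genes, among them Trp53, the targeted gene) has a median of 0.99, and the other p53 targets have a median of 0.60. The lists of ligases, deubiquitinases, MDM2 inhibitors or binding partners, kinases and PP2A subunits have medians between -0.17 and 0.02.

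Each regulator was also set beside the genes whose pattern over the 4 arrays was most like its own, by the Euclidean distance between log2 values centered on their mean, among 16512 other genes. The 3 nearest to Mdm2 were Prl2c1 (distance 0.13), Vmn2r-ps134 (0.17) and Etnk2 (0.26). Those nearest to Ccng1 were Mgmt (0.34), Ak1 (0.64) and Ephx1 (0.66), farther off than for any other regulator. For Rchy1 they were Golga7 (0.05), B9d1 (0.06) and Cib1 (0.07), for Ppm1d Dnase1l1 (0.06), Asgr2 (0.07) and Llph (0.07), and for Mdm4 Wnk1 (0.08), Dock4 (0.08) and Plekhm2 (0.09). Among the regulators, Ppm1d and Rchy1 were nearest to each other (distance 0.37), but 213 genes were nearer to Ppm1d than Rchy1 was. Mdm2 and Ccng1 lay at 1.86 from each other, with 33 genes nearer to Ccng1 and 665 genes nearer to Mdm2. With 4 arrays these distances only describe which genes have like values.

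The label of the cells was compared with markers. All 10 fibroblast markers were well above background on the 4 arrays, and their summed levels were 837, 683, 689 and 563 times the 75th percentile in untreated WT, treated WT, untreated p53-/- and treated p53-/- MEFs. Summed levels of 9 leukocyte markers were 16.2, 23.3, 18.2 and 15.2, of 5 epithelial markers 5.71, 9.98, 5.34 and 17.9, and of 5 endothelial markers 3.70, 4.49, 2.95 and 2.54. Itgam (signals of 26264 to 31691) and Krt18 (8346 to 40299) were the brightest of the leukocyte and epithelial markers and carried most of those sums. Epcam and Cdh5 were not well above background on any array, and Ptprc had signals of 65.3 to 104, below the brightest negative control of each array. With doxorubicin in WT MEFs the median log2 ratio was -0.61 for the fibroblast and 0.22 for the leukocyte markers, with members on both sides of 0. Of the 10 fibroblast markers, 4 were at least 2-fold lower (Lum, Pdgfra at -3.36, Pdgfrb at -2.44 and Dcn at -1.30) and 0 at least 2-fold higher. Col1a1 (0.26) and Vim (0.02) differed little, and the leukocyte marker Csf1r had -0.63. At the extremes, Lum, a fibroblast proteoglycan, had a log2 ratio of -4.81 and Cd14, a myeloid marker, of 3.74. In these treated WT MEFs Mdm2 and Ccng1 were at their highest. Their part in the levels of the regulators was not tested, and in bulk RNA fewer cells of a kind and less RNA per cell cannot be told apart.

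The scaling between arrays set how large the ratios were. Centering on the array median in place of the 75th percentile shifted the median ratio of all genes by -0.28 in WT and -0.30 in p53-/- MEFs. Under it Mdm2 was the only regulator at least 2-fold higher in WT MEFs (1.72), where 1319 of all genes were in place of 1930, and Ccng1 had 0.86 and Ppm1d 0.90. The differences between the genotypes moved little, since both ratios shifted together: that of Mdm2 ranged from 1.53 to 1.57 and that of Ccng1 from 1.21 to 1.30 over the alternatives. The difference of Mdm4 had the widest range of the 5, from 0.70 to 1.08.

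**Figure D4:**
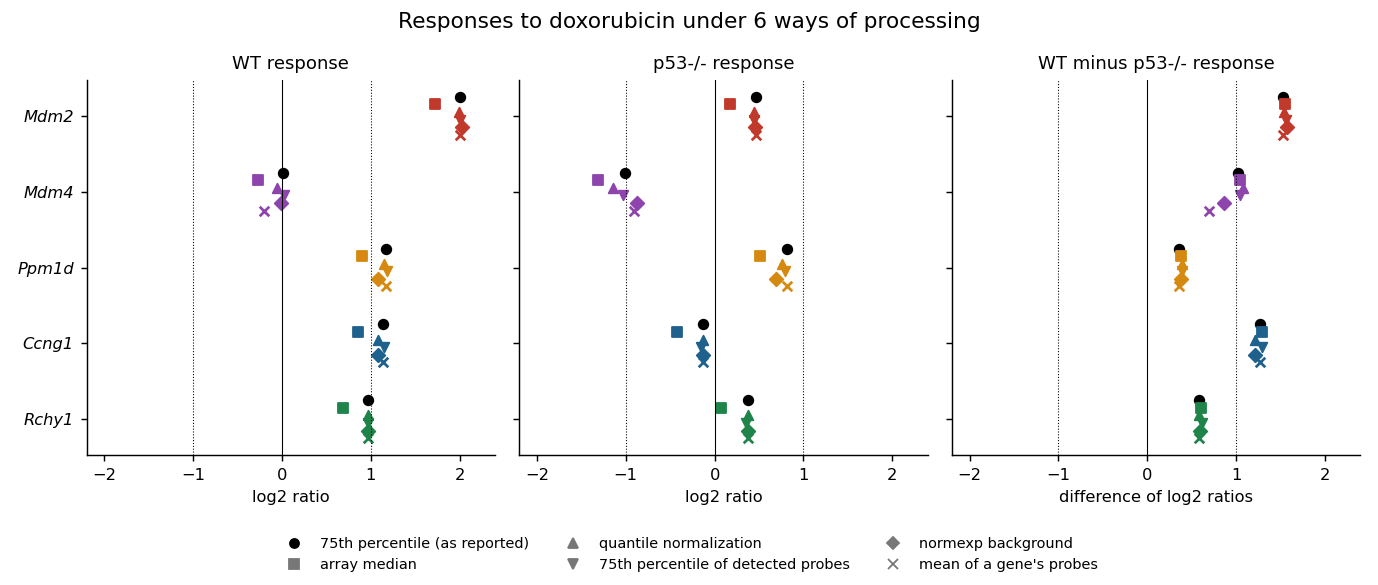
Doxorubicin log2 ratios of WT and p53-/- MEFs and their difference (horizontal axes) for the 5 regulators under 6 ways of processing, with black circles for the values reported and dotted lines at 2-fold. The array median (squares) lowers every ratio, and the difference keeps its sign for each regulator, from 0.36 for Ppm1d to 1.57 for Mdm2.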

How the data were processed

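Total RNA (200 ng) of each condition was labeled with Cy3 and hybridized to a one-color Agilent mouse array, 1 array per condition. The authors read the spots with Feature Extraction (version 10.7.3.1), and the deposited intensity of each spot is background-subtracted and not normalized between arrays. The deposited mean and local background intensities were used for 1 alternative, and the authors' deposited table of intensities for another. Flags in the files mark spots that are saturated, outliers (left out here) or well above background. The files place the probes on mm9.

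Log2 intensities were centered on the 75th percentile of each array. Where a gene had several probes, the brightest on average was used, and ratios were taken where it was well above background on both arrays. Names came from RefSeq (30180 of 39429 probes matched). The regulators and lists were chosen with earlier results of these data known. Genes named are the regulators, of each list those with the extreme differences, and the 3 genes nearest to each regulator. Other listed genes, past 2-fold or not, are examples chosen after their values were seen. Not every marker, and not every listed gene past 2-fold, is reported here by name. No test was run, since each condition has 1 array, and the number of arrays limits the precision.

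Alternatives were the array median, quantile normalization, the 75th percentile of detected probes, normexp background correction (limma, offset 50), the deposited table, the mean of a gene's probes, other filters on dim probes, limits of 1.5-fold and 3-fold, and Pearson correlation. The steps were tested on simulated data. Python 3.11.15 (numpy 2.4.6, pandas 2.3.3, matplotlib 3.10.9) and R 4.3.3 (limma 3.58.1) were used.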

Additional observations from a re-analysis of the deposited data

Results flagged for a closer look

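No regulator had log2 ratios of doxorubicin over untreated that were positive in one genotype and negative in the other, each by more than the error of the scanner software. Among the other genes of the circuit, 72 of them measured on all arrays, 13 did, and with 1 array per condition this difference was not tested. The share of all genes that did was not counted. With so few regulators, the lack of such a gene among them does not set them apart. The WT minus p53-/- difference was positive for Ei24 (2.43), Sesn2 (2.07), Phlda3 (1.5), Bax (1.44), Wwp1 (1.25), Zmat3 (1.08), Trp63 (0.99), Chek2 (0.84) and Ppp2r1a (0.69). It was negative for Siah1b (-1.90), Usp28 (-1.58), Gadd45a (-1.24) and Topors (-1.12).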

How the results depend on the processing

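Of 150 values of the regulators under the alternatives, 138 moved by less than the error of the scanner software, 12 moved by more and 0 called values changed sign. The deposited table holds the same intensities, so its 25 values could not move. The mean of a gene's probes could move only the values of Mdm4, the regulator with more than 1 probe. The WT ratio of Mdm4, 0.01 as reported, was -0.06 with quantile normalization and -0.011 with normexp. The 75th percentile of detected probes moved none of the values by more than the error. The filter on all 4 arrays, run on the counts alone, kept each count within 1.5 times. With the array median, the log2 ratios in WT and p53-/- MEFs were 1.72 and 0.17 (Mdm2), -0.27 and -1.31 (Mdm4), 0.90 and 0.51 (Ppm1d), 0.86 and -0.43 (Ccng1) and 0.69 and 0.076 (Rchy1). The regulators at least 2-fold higher in WT MEFs then numbered 1, the circuit genes at least 2-fold lower 9 in WT and 9 in p53-/- MEFs, and all genes 1319 higher and 2792 lower in WT, 955 higher and 2098 lower in p53-/- MEFs. With the mean of a gene's probes, Mdm4 had a WT ratio of -0.20 and a difference of 0.70, 0 regulators and 3 circuit genes were at least 2-fold lower in p53-/- MEFs, and with normexp 0 regulators were. Without a filter on dim probes, all genes past 2-fold numbered 4900 higher and 2868 lower in WT, 4719 higher and 2353 lower in p53-/- MEFs, 1673 and 3617 lower in p53-/- than WT MEFs without and with doxorubicin, and 3622 by the difference.

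With 1.5-fold as the limit, 1 regulator was higher in p53-/- MEFs and 5 were lower in p53-/- than WT MEFs with doxorubicin, 11 and 13 circuit genes were lower with doxorubicin in WT and p53-/- MEFs, and 18 passed by the difference. All genes then numbered 3609 and 3511 (higher and lower in WT), 3284 and 2687 (p53-/-), 1501 and 3521 (lower in p53-/- than WT MEFs without and with doxorubicin) and 3035 (difference). With 3-fold, 1 regulator was higher in WT MEFs, 0 lower in p53-/- MEFs and 0 past the limit by the difference. Circuit genes numbered 9 higher and 1 lower in WT, 5 higher and 1 lower in p53-/- MEFs, 6 lower in untreated p53-/- than WT MEFs and 3 by the difference. All genes numbered 888 and 734, 647 and 381, 123 and 864, and 523 in the same order. Of the 3 genes nearest to each regulator, Pearson correlation shared 0 (1 for Mdm4), normexp 0 for Mdm4 and Ppm1d and 1 for Rchy1, quantile normalization 1 for Mdm4 and 0 for Ppm1d, and the mean of probes 0 for Mdm4. The cause was not tested. No block for the slide could be fitted, as the arrays share 1 slide. No paired analysis was possible because each condition has 1 array. Signals of the dimmer Mdm4 probe are near the negative controls.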
